A study of Arabidopsis thaliana with 116 samples.

Results

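After 48 h on salicylic acid (SA), 135 of the 27655 genes counted in Arabidopsis thaliana seedlings stood below their controls in roots and above them in shoots. The genes were chosen from the data of that time. For each tissue the counts of the 3 SA libraries and of the 3 control libraries at 48 h were summed and expressed as CPM (read counts scaled to the library's total), and L was taken as the log2 ratio of SA CPM plus 0.5 over control CPM plus 0.5. A gene was a member where L was -1 or less in root and 1 or more in shoot, and the limit of 300 genes was not reached. In all, 3431 genes passed the root threshold (12.4% of the table) and 3837 passed the shoot threshold (13.9%). Both thresholds together left 0.488% of the table, while 658 genes were down in both tissues, 1206 were up in both and 64 had the mirror pattern, up in root and down in shoot. The 48 h values chose the members, so they are given below as a description with no test, and the tests compared groups of 0 to 24 h. The fits behind these tests took in the 48 h libraries too, for the filter on low counts, the scaling and the estimate of spread.

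The plants were wild-type Col-0 seedlings grown on agar and moved on day 5 to medium with 150 µM SA, to medium with 2 µM abscisic acid (ABA), or to the same medium without hormone as control. Roots and shoots were parted by a single cut at 0, 1, 2, 4, 7, 24 or 48 h. PolyA RNA of 3 biological replicates a group (4 for the controls at 0 h) was sequenced, which gave 58 libraries of each tissue, and the sources do not say how many plants made up a replicate. In bulk tissue, fewer cells of a type and less RNA per cell cannot be told apart.

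SA is a hormone of resistance against pathogens, read by the NPR proteins, and it is also known to slow root growth, while ABA is known for its part in drought responses and seed dormancy. Suberin, to which several members are linked, is a polyester of fatty acids, glycerol and ferulate laid down in the root endodermis, where it seals cells against water and ions. AZI1 and its neighbours encode small proteins of the lipid-transfer type, and AZI1 is known for its part in systemic immunity. Other members take up phosphate, belong to the family of boron transporters, regulate iron uptake, move sugar, or make flavonoids, glucosinolates and hormones.

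The sequences just upstream of 4 members are shown because these genes belong to the AZI1 gene cluster and the suberin group, on which the results below turn. Each is the run of 250 bases before the annotated gene start in RefSeq's TAIR10.1 assembly, read 5′ to 3′ on the gene's own strand. The window of AZI1 lies at chr4:7401952-7402201 on the minus strand. The suberin windows lie at chr5:7805969-7806218 (minus strand) for CYP86B1, at chr5:16431054-16431303 (plus strand) for RWP1 and at chr3:19839984-19840233 (minus strand) for ABCG20. Capitals mark matches, on either strand, to the motifs searched: the W-box core TTGAC, the TGA core TGACG, the G-box CACGTG, the NAC core CATGTG, the ERF site GCCGCC and the evening element AAAATATCT. The first 2 of these share the letters TGAC and can overlap.
AZI1: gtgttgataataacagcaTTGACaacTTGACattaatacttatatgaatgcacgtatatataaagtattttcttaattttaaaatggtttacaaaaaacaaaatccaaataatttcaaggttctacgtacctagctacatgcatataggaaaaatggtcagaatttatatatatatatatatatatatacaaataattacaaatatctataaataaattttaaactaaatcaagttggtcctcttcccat
CYP86B1: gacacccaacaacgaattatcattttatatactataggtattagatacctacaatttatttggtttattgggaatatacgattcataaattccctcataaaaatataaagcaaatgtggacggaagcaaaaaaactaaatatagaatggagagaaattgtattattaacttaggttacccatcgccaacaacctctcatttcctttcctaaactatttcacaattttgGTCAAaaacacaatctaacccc
RWP1: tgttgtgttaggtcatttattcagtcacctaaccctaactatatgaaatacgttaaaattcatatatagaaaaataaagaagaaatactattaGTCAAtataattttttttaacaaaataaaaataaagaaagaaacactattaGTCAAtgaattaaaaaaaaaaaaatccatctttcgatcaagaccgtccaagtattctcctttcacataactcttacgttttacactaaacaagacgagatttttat
ABCG20: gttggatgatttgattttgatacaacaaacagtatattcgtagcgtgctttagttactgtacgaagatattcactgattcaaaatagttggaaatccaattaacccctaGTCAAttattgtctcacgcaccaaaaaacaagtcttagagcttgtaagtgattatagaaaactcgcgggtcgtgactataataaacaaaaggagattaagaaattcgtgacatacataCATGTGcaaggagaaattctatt
Among the windows of all 135 members, 56.3% held TTGAC, against 44.9% of the 27443 windows of all genes, and 20.7% held CATGTG, against 11.1%. The other motifs were held by 18.5% of members against 18.6% of all windows for TGACG, 7.4% against 6.5% for CACGTG, 2.2% against 1.9% for GCCGCC and 2.2% against 2.4% for AAAATATCT. These shares describe letters in a window and carry no test.

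At 48 h the members' median L was -1.45 in root and 1.48 in shoot, beside medians of -0.09 in root and 0.26 in shoot over all genes tested. Part of the shoot value was scale: when totals were rescaled by TMM (trimmed mean of M values, which sets libraries level on the bulk of their genes), the shoot log2 ratios moved by 0.32. On that scale the members' medians were -1.37 in root and 1.22 in shoot, and 67 of the 135 passed both thresholds. Just inside the root threshold were PFA-DSP1 (L of -1.002), EDA4 (-1.003) and LAC13 (-1.01), and just outside it were RTFL5 (-0.996), PHO2 (-0.98) and ELF5A-1 (-0.97). Just inside the shoot threshold were AT1G13310 (1.004), AT2G20562 (1.01) and LACS3 (1.01), and just outside it were AT1G14160 (0.99), AT5G45580 (0.98) and AT5G41400 (0.98).

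The widest separation at 48 h was that of LUP5, which encodes a terpenoid cyclase. It had 0.0337, 0 and 0 CPM in SA roots, against 1.33, 2.14 and 1.64 in control roots on the TMM scale, which is used for the values per library below. In shoots it had 20.9, 23.3 and 22.5 CPM in SA shoots, against 0.119, 0 and 0.212 in control shoots. LUP5 was thus near 0 in every SA root and every control shoot. BOR5, of the family of boron transporters, had 0.707, 0.368 and 0.4297 CPM in SA roots, against 3.03, 1.63 and 2.94 in control roots, and 146, 120.3 and 113 CPM in SA shoots, against 19.8, 9.87 and 9.96 in control shoots. APL3, a large subunit of ADP-glucose pyrophosphorylase in starch synthesis, had 2.52, 2.76 and 3.21 CPM in SA roots, against 9.38, 8.54 and 7.77 in control roots, and 321, 293 and 242 CPM in SA shoots, against 38.04, 27.4 and 28.4 in control shoots. These 48 h values are those by which the members were chosen and ranked. The other 7 of the 10 widest were AT4G12490, AT4G12500, the flavonoid gene TT7, the peroxidase gene AT4G08780, the cotton fiber protein gene AT3G57950, the LURP-one-like gene AT1G80120 and AT1G76470. Their L ran from -2.89 (TT7) to -1.11 (AT3G57950) in root and from 2.14 (TT7) to 3.59 (AT3G57950) in shoot.

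Over the series, libraries held between 46189 and 221250466 counts (median 30483879). The shallowest, a shoot control at 7 h, stood alone, since the next held 5031509 (its correlation with the other controls of that time was at most 0.669), and the SA and control libraries of 24 and 48 h held 9256063 to 52347644. Of the 3 SA root libraries at 24 h, 2 carried another library-name prefix than the controls of that time, and what the prefix stands for is not given in the sources used here. Of the shoot controls at 0 h, replicate 1 stood apart, with correlations of 0.979 to 0.988 with the others, against 0.994 to 0.996 among them. Replicate 1 of the ABA shoots at 1 h had correlations of 0.951 and 0.953 with the others of its group. Marker genes of the tissues also moved with SA. In roots, 18 root markers (among them root hair and root cap genes) summed to 340 to 370 CPM with SA and 464 to 500 CPM in controls at 24 h, and to 151 to 160 CPM with SA and 429 to 462 CPM in controls at 48 h. In shoots the same markers summed to 29.6 to 34.5 CPM with SA and 27.3 to 28.01 CPM in controls at 24 h, when PLT2 was at 0 with SA. In shoots, 15 shoot markers summed to 25430 to 27500 CPM with SA and 61870 to 63470 CPM in controls at 24 h. At 48 h they summed in shoots to 19410 to 21200 CPM with SA and 62010 to 71320 CPM in controls. In roots at 24 h the shoot markers summed to 17.1 to 19.5 CPM with SA, where FAMA, MUTE, STM and GL1 were at 0, and 15.8 to 71.0 CPM in controls. Single markers did not all move 1 way. At 24 h, 9 of the 18 root markers were called lower in root and 1 higher (edgeR, adjusted p under 0.05; all genes 32.9% and 32.1%). Of 14 shoot markers tested in shoot, 12 were called lower and 1 higher (all genes 30.4% and 29.3%). The part of these shifts in the members' changes was not tested.

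To see whether the pattern stood in libraries that had no part in the choice, the members were tested at 24 h. In root, 103 of the 135 members were lower with SA and 14 were higher by edgeR's quasi-likelihood test with Benjamini-Hochberg adjustment (adjusted p under 0.05), where 32.9% of the 21367 genes tested were called lower and 32.1% higher. In shoot, 88 members were higher and 1 was lower, where 29.3% of 21263 genes were called higher and 30.4% lower. The members' median log2 fold change was -0.87 in root and 1.00 in shoot, beside -0.01 in either tissue over all genes. Of the 135, 71 were called both lower in root and higher in shoot, against 3.43% of the 20305 genes tested in both tissues. A further 31 were lower in root only, 11 were higher in shoot only, 8 were higher in root only, 6 were higher in both, 1 was lower in both and 7 were called in neither. The SA libraries all lay below the control libraries in root for 105 members, against 36.1% of all genes tested, and all above them in shoot for 92, against 33.7%. All 135 members passed the filter on low counts, through whichever group was high. The 48 h groups that chose the members counted in that filter and in the estimate of spread, so the test was not wholly apart from the choice. With only the SA root library that shares the controls' prefix, and its spread taken from the other groups, 85 members were called lower and 10 higher in root, and 60 were called in both directions.

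**Figure D1:**
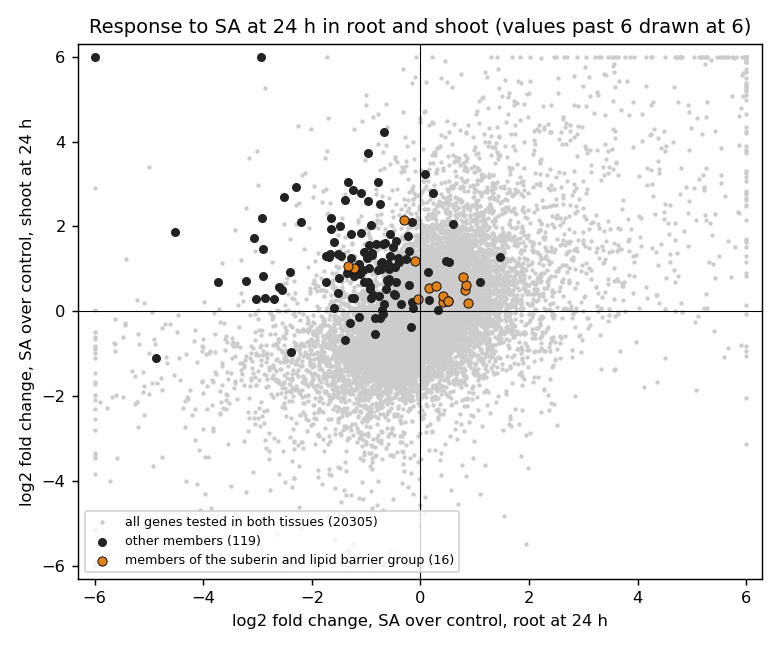
Log2 fold change of SA over control at 24 h in root (horizontal) and in shoot (vertical), 1 point a gene, for all 20305 genes tested in both tissues and, on top, the 135 members, with the 16 suberin and lipid barrier members marked apart. The members gather at the upper left, where 71 were called lower in root and higher in shoot, while 10 of the 16 suberin points were called higher and 3 lower in root. Values past 6 on either axis are drawn at 6.

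The difference between the tissues was also tested itself. The SA effect at 24 h was higher in shoot than in root for 100 of the 135 members and lower for 0 (interaction term in edgeR, adjusted p under 0.05), where 17.0% of the 22322 genes tested had a higher and 24.9% a lower effect in shoot. The median difference was 1.84 on the log2 scale, beside -0.10 over all genes, and 121 members had a positive one.

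Most members were root genes before any treatment. In the controls at 0 h, 105 were higher in root and 22 were higher in shoot (edgeR, adjusted p under 0.05), where 38.1% of all genes tested were called higher in root and 42.2% higher in shoot. Without replicate 1 of every group the counts were 105 and 23. The choice itself favours such genes: a fall in root needs a level in control roots at 48 h, while a rise in shoot needs none in control shoots. All genes tested faced no such demand, so their shares are not a like measure, here or for groups of members below. MSRB7, a methionine sulfoxide reductase gene named here after its values were seen, stood farthest to the root side, with 65.3, 58.3, 63.5 and 73.3 CPM in roots, against 0.3105, 0, 0.155 and 0.0822 in shoots, on a scale common to both tissues. Of the listed genes, FRU, better known as FIT, the bHLH regulator of iron uptake in root, had 48.1, 52.6, 41.3 and 48.99 CPM in roots, against 0.976, 0.696, 0.8701 and 0.767 in shoots. AT4G12490 stood on the other side, with 1.96, 4.296, 8.18 and 2.300 CPM in roots, against 19.9, 69.03, 72.5 and 44.7 in shoots. Roots and shoots did not overlap for any of these 3 genes.

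The members' median gap between the tissues was near 0 in the SA groups at 24 h. The members were chosen at 48 h for a fall in root and a rise in shoot, which narrows such a gap with SA. The gap was not taken over all genes. The median member was 1.801 higher in root than in shoot on the log2 scale (0.5 added to each mean CPM) in the controls at 0 h, -0.01 in the SA groups at 24 h, and 1.595 in the controls at 24 h. In these 3 sets 107, 66 and 103 of the 135 members had the higher mean in root.

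**Figure D2:**
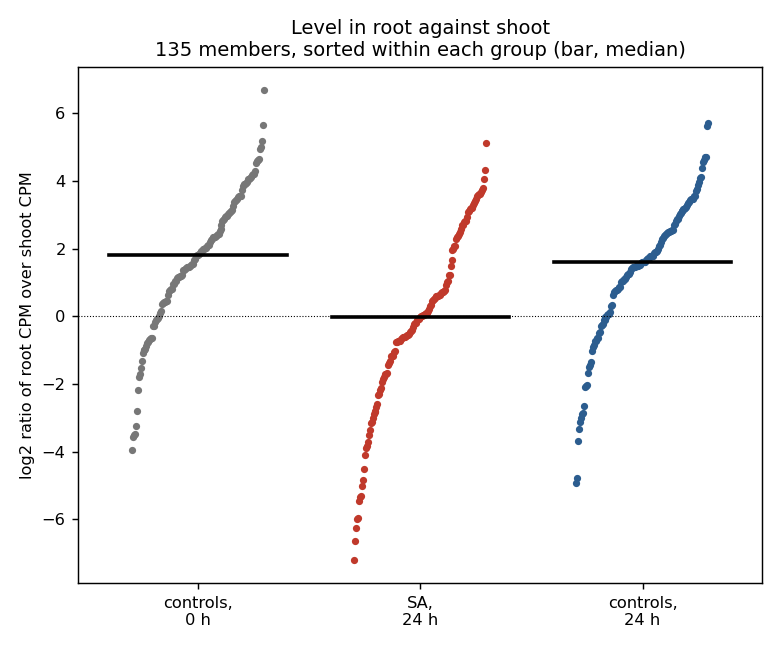
Log2 ratio of the mean CPM plus 0.5 in root over the mean CPM plus 0.5 in shoot for the 135 members, on the scale common to all libraries, in the controls at 0 h, with SA at 24 h and in the controls at 24 h. The median is 1.801, -0.01 and 1.595 in the 3 sets. The choice of the members at 48 h favours a smaller gap with SA.

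The 10 members with the clearest opposite calls at 24 h came from unlike pathways. They were picked by their adjusted p in these same libraries, so the wide separation of their groups follows largely from that choice. PDIL1-3, of the protein disulfide isomerases that help proteins fold in the endoplasmic reticulum, had 119, 115 and 119 CPM in SA roots, against 218, 222 and 223 in control roots (log2 fold change -0.91 ± 0.09 SE, edgeR adjusted p = 1.60e-12). In shoots it had 82.9, 72.6 and 75.6 CPM in SA shoots, against 18.9, 19.8 and 17.98 in control shoots (2.03 ± 0.12 SE, edgeR adjusted p = 6.72e-19). PDIL1-3 thus fell in root and rose in shoot, with no overlap of SA and control libraries in either tissue. Hsp70-2, a chaperone of the heat shock protein family, had 15.8, 12.05 and 17.7 CPM in SA roots, against 68.7, 66.3 and 75.4 in control roots (log2 fold change -2.197 ± 0.16 SE, edgeR adjusted p = 8.86e-17). In shoots Hsp70-2 had 99.8, 61.97 and 80.95 CPM in SA shoots, against 22.2, 18.3 and 16.2 in control shoots (2.102 ± 0.27 SE, edgeR adjusted p = 7.79e-09). Again no library of one group reached the other. FUT4, a fucosyltransferase of arabinogalactan proteins, had 20.6, 18.9 and 20.6 CPM in SA roots, against 38.04, 39.4 and 39.5 in control roots, and 28.6, 28.97 and 30.3 CPM in SA shoots, against 3.28, 6.18 and 4.801 in control shoots. LUP5 had 0, 0 and 0 CPM in SA roots, against 0.779, 0.667 and 0.424 in control roots, and 8.85, 13.3 and 13.1 CPM in SA shoots, against 0.0799, 0.148 and 0 in control shoots. With a floor of 3 counts per library, LUP5 was at least 4.56-fold lower in SA roots than in control roots. AT5G59070, a glycosyltransferase-family gene, had 0.417, 0.774 and 0.663 CPM in SA roots, against 4.19, 5.55 and 4.79 in control roots, and 4.001, 3.94 and 3.64 CPM in SA shoots, against 0.919, 0.886 and 0.686 in control shoots. MSRB9, a further methionine sulfoxide reductase gene, had 119, 102 and 115 CPM in SA roots, against 191, 207 and 226 in control roots, and 13.4, 11.5 and 13.2 CPM in SA shoots, against 3.64, 5.08 and 6.53 in control shoots. In all of these genes the SA libraries lay below the controls in root and above them in shoot.

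**Figure D3:**
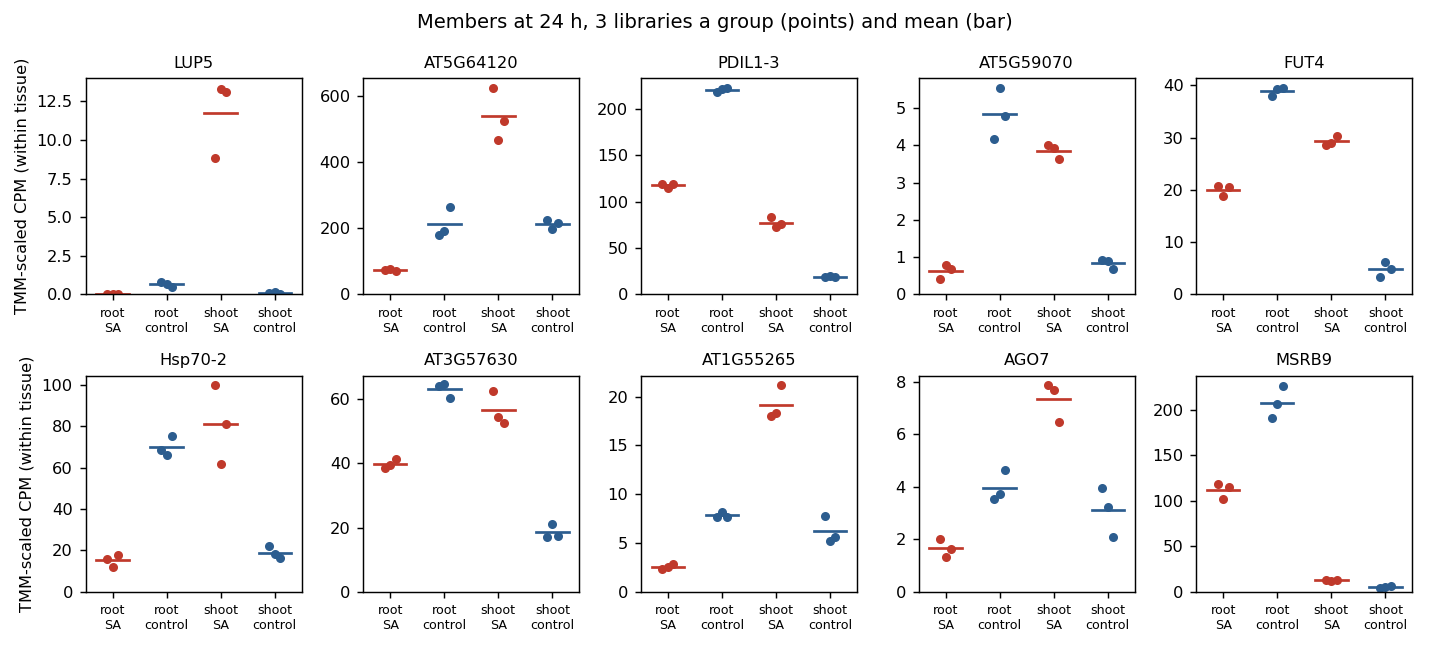
TMM-scaled CPM of the 10 members at 24 h, with SA left of control in each tissue, root first; points are the 3 libraries and bars are their means. In every panel the SA points lie below the control points in root and above them in shoot. The 10 were picked by their calls in these libraries.

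The other 4 of the 10 were the peroxidase gene AT5G64120, the exostosin-family gene AT3G57630, AT1G55265 of unknown function, and AGO7, the Argonaute protein of trans-acting siRNA formation. Their log2 fold changes in root were -1.52, -0.66, -1.59 and -1.28, and in shoot 1.34, 1.61, 1.63 and 1.25. AT5G64120 was the most abundant of the 10, with 625, 466 and 524 CPM in SA shoots, against 225, 196 and 216 in control shoots.

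In a group of 16 members linked to suberin and extracellular lipids, more were called higher than lower in root at 24 h. This group and the other role groups below were put together after the values were seen, and 61 members stand in none. The 16 are CYP86B1, RWP1, the transporter genes ABCG6, ABCG20 and ABCG23, the regulator gene MYB39, LACS3, 3 GDSL lipase genes, 5 lipid-transfer-type genes and AT4G03540. By the rule their L at 48 h lay between -2.097 and -1.003 in root. At 24 h, 10 of the 16 were higher in root with SA and 3 were lower (edgeR, adjusted p under 0.05, with a background of 32.1% and 32.9%). Calls in both directions were lost without the SA libraries of another prefix, among them the higher calls of RWP1 and ABCG20 given below. In shoot, 6 of the 16 were higher at 24 h and 0 were lower (background 29.3% and 30.4%), and without replicate 2 of every group 3 were higher, so the shoot share was near the background. At 0 h 15 of the 16 were higher in root (background 38.1%). The counts of the other groups and of the lists at 24 h, given below, stand against the same shares of all genes, 32.9% lower and 32.1% higher in root and 30.4% lower and 29.3% higher in shoot. Role groups are parts of the members, which were chosen for these directions. Of all members 76.3% were lower and 10.4% higher in root, and 0.7% lower and 65.2% higher in shoot.

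CYP86B1, the cytochrome P450 that hydroxylates very-long-chain fatty acids for suberin, had 176, 174 and 188 CPM in SA roots, against 90.97, 101 and 94.9 in control roots at 4 h (log2 fold change 0.91 ± 0.14 SE, edgeR adjusted p = 2.68e-07). At 24 h CYP86B1 had 69.03, 69.3 and 68.97 CPM in SA roots, against 48.2, 46.9 and 50.6 in control roots (0.51 ± 0.14 SE, edgeR adjusted p = 0.00185). At 48 h it had 17.4, 18.2 and 15.5 CPM in SA roots, against 39.9, 46.8 and 46.9 in control roots. The SA roots were thus above the control roots at 4 and 24 h, with no overlap, while the lower values at 48 h are those of the rule. RWP1, also called ASFT, which adds ferulate to suberin, had 397, 408 and 424 CPM in SA roots, against 226, 250.3 and 231 in control roots at 4 h (0.80 ± 0.12 SE, edgeR adjusted p = 1.34e-07). At 48 h RWP1 had 77.2, 70.8 and 69.5 CPM in SA roots, against 130.2, 141 and 149.7 in control roots. ABCG6 and ABCG20, transporters needed for suberin, had root log2 fold changes of 0.88 and 0.75 at 4 h and 0.42 and 0.51 at 24 h, and L of -1.76 and -1.599 at 48 h. The root call at 24 h was lost for RWP1 (0.29) without replicate 1 (0.27) or replicate 2 (0.35) of every group, and for ABCG20 without replicate 2 (0.49). Without the libraries of another prefix it was lost for both genes, with 0.26 for RWP1 and 0.36 for ABCG20.

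**Figure D4:**
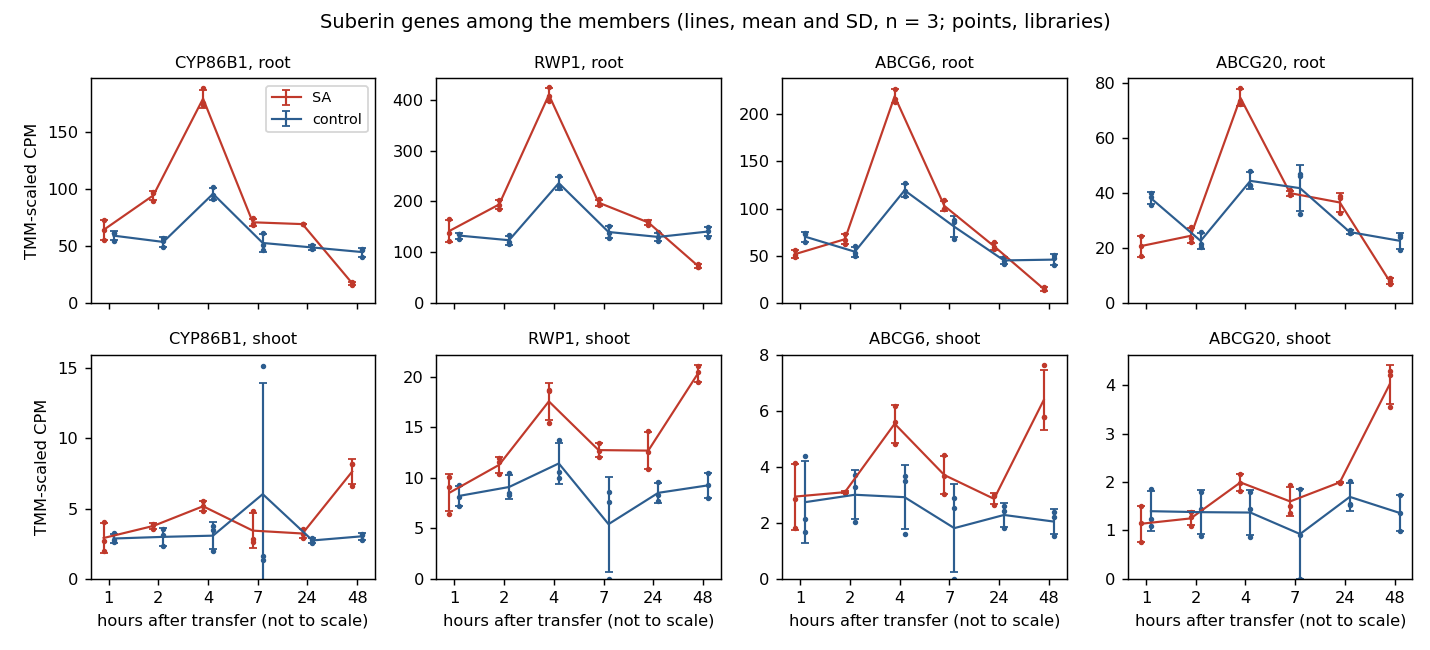
TMM-scaled CPM of CYP86B1, RWP1, ABCG6 and ABCG20 from 1 to 48 h in root and shoot with SA and in controls; lines join means of 3 libraries and bars are SD. In root SA lies above control at 4 h for each gene; its place below control at 48 h was set by the rule, and the wide control bar in shoot at 7 h holds the library of 46189 counts.

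MYB39, a transcription factor known to promote suberin and named here after its values were seen, had 33.03, 30.2 and 29.9 CPM in SA roots, against 11.5, 11.44 and 9.12 in control roots at 4 h and 2.38, 1.26 and 1.64 CPM in SA roots, against 4.45, 4.64 and 3.23 in control roots at 24 h. It rose in root at 4 h (1.54 ± 0.17 SE, edgeR adjusted p = 4.25e-11) and fell at 24 h (-1.23 ± 0.23 SE, edgeR adjusted p = 1.11e-05) when CYP86B1, RWP1, ABCG6 and ABCG20 were still called higher. Of the SA roots at 24 h, the library with the controls' prefix had 2.38 CPM of MYB39, and those of another prefix had 1.26 and 1.64. The calls of RWP1 and ABCG20 leaned on the same libraries, as given above.

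A list of 12 suberin genes, drawn up without the rule but with earlier results of these data known, held 4 of the members. At 24 h 11 of the 12 were higher in root with SA and 0 were lower, with a median log2 fold change of 0.85. At 48 h the list was spread in root, with a median L of -0.07: the 4 members had L between -1.76 and -1.07, as the rule required, and FAR1, FAR4 and FAR5, whose products make the fatty alcohols of suberin, had L of 2.28, 1.31 and 1.32. The other 5 lay between, from -0.88 (MYB41) to 0.77 (ABCG2). In shoot 5 of the 12 were higher at 24 h and 0 were lower.

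The members called the other way in root at 24 h were led by AT5G07475, a cupredoxin-family gene, with 57.4, 54.9 and 56.1 CPM in SA roots, against 24.9, 27.8 and 25.9 in control roots (log2 fold change 1.099 ± 0.12 SE, edgeR adjusted p = 2.02e-11). AT5G20860, of the pectin methylesterase inhibitor family, had 7.97, 8.62 and 7.497 CPM in SA roots, against 2.34, 2.74 and 3.45 in control roots, and 1.08, 0.7802 and 1.19 CPM in SA shoots, against 0.2398, 0.527 and 0.433 in control shoots. The groups lay apart in each case. Next came AT3G50400 and EDA4 of the lipid group and AT4G03540, with root log2 fold changes of 0.84, 0.82 and 0.88. All 14 members that rose in root at 24 h were higher in root than in shoot at 0 h. The shoot call of AT5G07475 (0.68) was lost without replicate 2 (0.54) or 3 (0.61) of every group, and that of AT5G20860 (1.29) without replicate 1 (1.01).

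The AZI1 cluster holds 3 members, AZI1 (chr4:7401087-7401951 in TAIR10.1), AT4G12490 and AT4G12500. AT4G12490, the member with the most CPM in SA shoots at 48 h, had 9.88, 5.47 and 5.97 CPM in SA roots, against 49.3, 34.2 and 35.8 in control roots at 24 h (log2 fold change -2.51 ± 0.41 SE, edgeR adjusted p = 5.96e-07). In shoots AT4G12490 had 675, 428 and 507 CPM in SA shoots, against 93.2, 90.8 and 65.3 in control shoots (2.69 ± 0.40 SE, edgeR adjusted p = 1.19e-07). AT4G12490 thus fell in root and rose in shoot, with the groups apart in both. AT4G12500 had 1.904, 1.45 and 1.96 CPM in SA roots, against 8.31, 3.09 and 5.35 in control roots, and 92.2, 66.1 and 62.96 CPM in SA shoots, against 16.7, 17.5 and 13.97 in control shoots. AZI1 had 488, 365 and 333 CPM in SA shoots, against 174, 141 and 128 in control shoots, where it rose (1.42 ± 0.28 SE, edgeR adjusted p = 2.44e-05). In roots AZI1 had 9.998, 5.905 and 4.58 CPM in SA roots, against 8.89, 8.57 and 5.604 in control roots, which overlap (edgeR adjusted p = 0.537). At 4 h AZI1 was lower in root, with 6.395, 5.64 and 4.896 CPM in SA roots, against 26.9, 24.7 and 13.95 in control roots.
All 3 members were higher in shoot than in root at 0 h. The neighbouring genes were chosen after their values were seen. EARLI1, between AZI1 and AT4G12490, had L of -0.64 in root and 2.12 in shoot and so missed the root threshold, while AT4G12510 and AT4G12520, of the same protein family, had L of -5.33 and -4.96 in root and of -0.83 and -1.29 in shoot. AT4G12490 overlaps another annotated gene, AT4G12495, and whether reads were counted by strand is not given in the sources used here.

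At 24 h both flavonoid members and all 3 glucosinolate members fell in root, while 0 flavonoid members (1 with the replicate block) and 2 glucosinolate members rose in shoot. TT7, the flavonoid 3′-hydroxylase gene, had 16.5, 13.7 and 13.1 CPM in SA roots, against 80.7, 78.3 and 74.5 in control roots at 4 h and 11.3, 9.002 and 5.25 CPM in SA roots, against 66.9, 64.5 and 52.3 in control roots at 24 h, when it was lower (log2 fold change -2.901 ± 0.24 SE, edgeR adjusted p = 1.43e-14). In shoots at 24 h TT7 had 132, 107 and 90.1 CPM in SA shoots, against 95.9, 52.2 and 38.3 in control shoots, which overlap (edgeR adjusted p = 0.0517). With replicates entered as a block it was higher (log2 fold change 0.89 ± 0.23 SE, edgeR adjusted p = 0.00101), with the SA value above the control value in each of the 3 same-numbered pairs. The root groups lay apart at both times. CYP79B2 and CYP83B1, successive enzymes of indole glucosinolate synthesis, fell in root at 24 h by edgeR's test, with log2 fold changes of -0.84 and -0.87. In shoots CYP83B1 was higher (0.39), a call that was lost without replicate 2 (0.41) or replicate 3 (0.30) of every group, and CYP79B2 had a value of -0.16 (adjusted p = 0.543 in edgeR). On a list of 15 genes of indole glucosinolates and camalexin, 12 were lower and 1 higher in root at 24 h, and 5 were lower and 6 higher in shoot.

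The 6 members of mineral nutrition were all higher in shoot at 24 h and 5 of them were lower in root. PHT1;4, a high-affinity phosphate transporter, had 15.3, 14.8 and 14.9 CPM in SA roots, against 48.4, 48.6 and 45.8 in control roots (log2 fold change -1.67 ± 0.15 SE, edgeR adjusted p = 1.04e-13), and 36.7, 26.2 and 18.4 CPM in SA shoots, against 11.9, 10.9 and 8.99 in control shoots (1.36). PS2, a phosphatase gene induced by phosphate starvation, had 2.68, 2.81 and 2.83 CPM in SA roots, against 7.76, 6.71 and 6.01 in control roots, and 3.84, 3.56 and 3.096 CPM in SA shoots, against 1.68, 0.843 and 0.505 in control shoots. For both genes the groups lay apart in both tissues. On a list of 17 phosphate starvation genes, 7 were lower and 2 higher in root, and of the 15 tested in shoot 2 were lower and 9 higher. FRU (FIT) had 50.9, 49.7 and 49.02 CPM in SA roots, against 70.6, 61.2 and 73.5 in control roots, and 4.12, 3.56 and 4.82 CPM in SA shoots, against 1.36, 1.43 and 1.16 in control shoots, again apart in both tissues. On a list of 23 iron genes that includes FRU, the only member on it, 11 were lower and 5 higher in root, and of 21 tested in shoot 13 were lower and 3 higher, FRU being one of the 3. BOR5 had 1.07, 0.968 and 1.12 CPM in SA roots, against 2.69, 3.83 and 2.52 in control roots, and 95.2, 76.1 and 52.2 CPM in SA shoots, against 23.9, 18.2 and 13.2 in control shoots. LSU1, a gene of the sulfur deficiency response, and AT5G26220 of the ChaC family, whose product degrades glutathione, had root log2 fold changes of -1.14 and -0.59 (edgeR adjusted p of 8.26e-04 and 0.155) and shoot values of 0.997 and 1.13. The shoot call was lost for LSU1 without replicate 2 (0.89) or 3 (0.74) of every group and for AT5G26220 without replicate 2 (1.06). On a list of 14 sulfur deficiency genes, 4 were lower and 4 higher in root, and of 13 tested in shoot 2 were lower and 6 higher.

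The 5 sugar and starch members were all lower in root and higher in shoot at 24 h, with 3 lower in root without the SA libraries of another prefix. APL3 had 6.07, 4.89 and 4.32 CPM in SA roots, against 9.02, 8.39 and 7.71 in control roots (log2 fold change -0.74 ± 0.13 SE, edgeR adjusted p = 2.67e-06), and 276, 245 and 223 CPM in SA shoots, against 60.6, 34.4 and 33.6 in control shoots (2.53 ± 0.22 SE, edgeR adjusted p = 1.29e-13). Its root call was lost without the SA libraries of another prefix (-0.44). SWEET13, a sucrose exporter gene named after its values were seen, had 0.238, 0.436 and 0.173 CPM in SA roots, against 8.34, 5.06 and 5.29 in control roots, and 6.28, 3.97 and 3.67 CPM in SA shoots, against 1.52, 1.43 and 0.866 in control shoots. The groups of both genes lay apart in both tissues.

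Of the 5 genes of hormone enzymes, all fell in root at 24 h and 4 rose in shoot. NCED3, whose product makes the precursor of ABA under drought and which was named after its values were seen, had 1.25, 1.500 and 1.82 CPM in SA roots, against 2.63, 4.28 and 4.17 in control roots, and 6.83, 6.68 and 5.54 CPM in SA shoots, against 1.08, 0.822 and 0.758 in control shoots, with log2 fold changes of -1.24 and 2.86. The other 4 were the brassinosteroid genes BR6OX1 and BR6OX2, the cytokinin synthesis gene IPT7 and the cytokinin oxidase gene CKX7, with root values of -1.300, -0.57, -2.29 and -1.68. In shoot they had -0.27 (not called), 0.76, 2.92 and 1.29. The value of IPT7 rests on low counts, with 0.5737, 1.156 and 0.5435 CPM in SA shoots, against 0.2499, 0.05416 and 0.04569 in control shoots on the scale common to both tissues. All 6 genes of kinases and signalling were lower in root and higher in shoot. In the interaction test all 5 hormone genes had a higher SA effect in shoot (background 17.0%). So had all 6 genes of kinases and signalling, all 6 of mineral nutrition and all 5 of sugar and starch. In the suberin and lipid barrier group, 4 of the 16 had a higher effect in shoot and 0 a lower one. Of 4 genes of cold and ABA response, 4 fell in root and 2 rose in shoot (1 without replicate 2 or 3 of every group), and of 4 genes of redox and folding 4 fell and 3 rose.

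The cell wall and calmodulin groups held some of the most abundant members. RGP1, a UDP-arabinose mutase gene of wall synthesis, had 447, 419.5 and 459 CPM in SA roots, against 683, 686 and 638 in control roots (log2 fold change -0.60 ± 0.07 SE, edgeR adjusted p = 8.35e-11), and 218, 174 and 179 CPM in SA shoots, against 140.1, 112 and 102 in control shoots (0.69 ± 0.19 SE, edgeR adjusted p = 0.00130). CAM3, a calmodulin gene, had 161, 161 and 163 CPM in SA roots, against 226, 227 and 224 in control roots, and 178, 167 and 189 CPM in SA shoots, against 126, 134 and 142 in control shoots. Both were lower in root and higher in shoot with no overlap. RGP1 and CAM3 each have a near copy (at least 100 bases at 90% identity or more), as have 13 members in all, so reads could be divided between copies. Of the 13 cell wall members, 7 were lower and 2 higher in root and 10 were higher in shoot, and of the 5 calmodulin members 3 were lower in root and 3 higher in shoot (background 32.9% lower and 32.1% higher in root, 29.3% higher in shoot).

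In root, members were called from 1 h on, as were many other genes. In shoot, few genes of any kind were called at 1 h, and the members' share was near that of all genes. In root, 61 members were lower and 23 higher with SA at 1 h (edgeR, adjusted p under 0.05; background 22.5% and 22.7%), and 68 and 35 at 2 h (32.1% and 29.4%). At 4 h 71 were lower and 33 higher (30.8% each), and at 7 h 63 and 23 (30.4% and 27.9%). The members' median log2 fold change in root was -0.31, -0.40, -0.46, -0.39 and -0.87 at 1, 2, 4, 7 and 24 h. In shoot, 0 members were lower and 1 was higher at 1 h (0.277% and 0.578%), and 2 and 14 at 2 h (1.97% and 5.31%). At 4 h 3 were lower and 36 higher (8.83% and 14.0%), and at 7 h 2 and 54 (17.7% and 20.0%). With replicates entered as a block, 3 members were lower and 2 higher in shoot at 1 h, and 5 were lower at 2 h. The shoot counts moved with single replicates: without replicate 2 of every group, 2, 23 and 30 members were higher at 2, 4 and 7 h, and without replicate 3 of every group 7 were higher at 2 h and 34 at 7 h. Members lower in shoot numbered 0 to 5 at these times with a replicate left out. The median log2 fold change in shoot was -0.07, 0.17, 0.42, 0.66 and 1.00 from 1 to 24 h. In the suberin and lipid barrier group, 13 of the 16 were higher and 2 lower in root at 4 h.

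**Figure D5:**
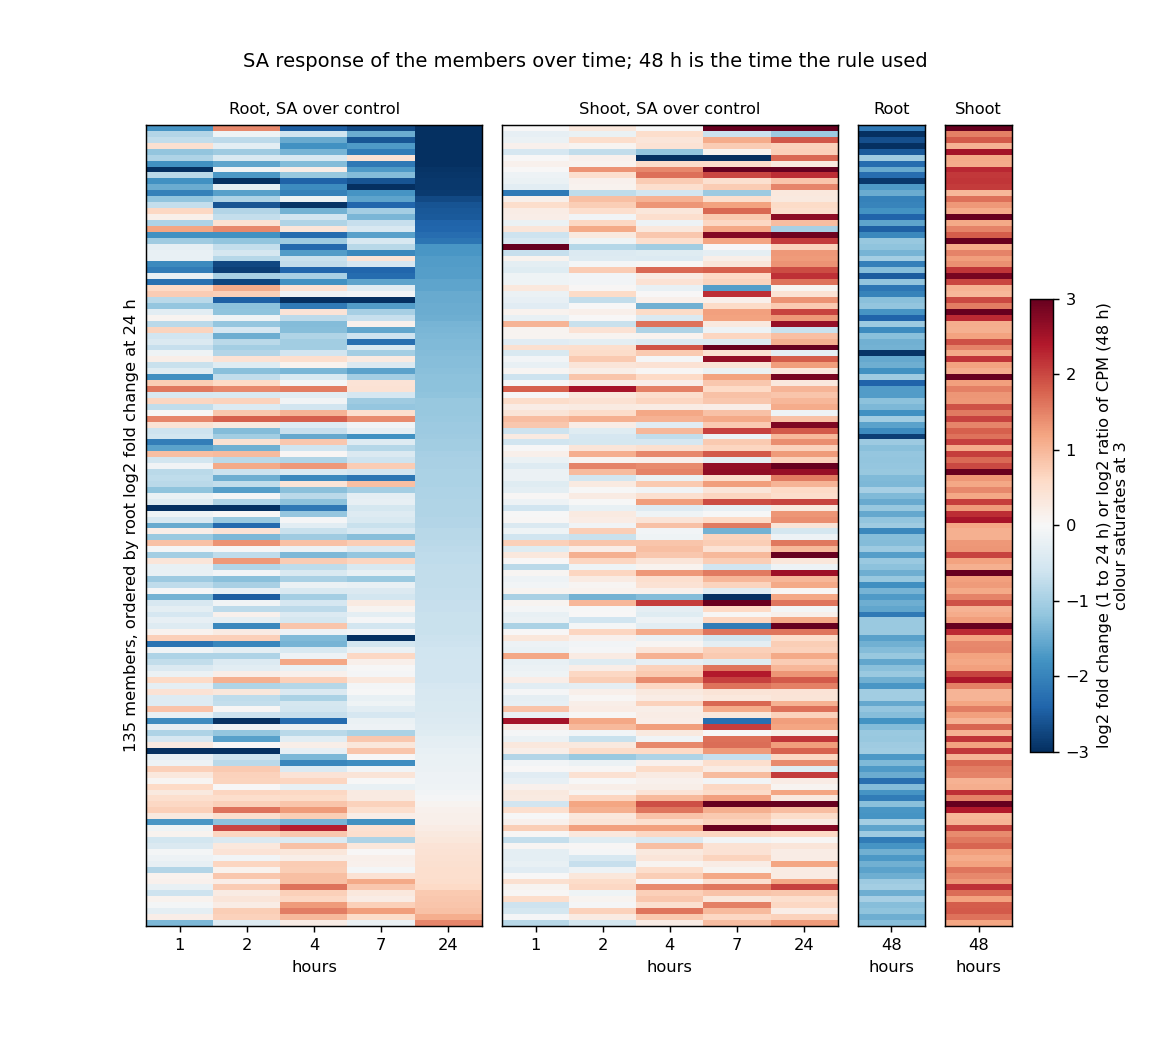
Log2 fold change of SA over control for the 135 members (1 line each) at 1, 2, 4, 7 and 24 h in root and in shoot, ordered by the root value at 24 h, and beside them L at 48 h, which chose the members; colour saturates at 3. In root the median falls to -0.87 at 24 h and in shoot it climbs to 1.00.

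AT3G07720, a kelch repeat gene among the most abundant members, turned in root. It had 455, 449 and 408 CPM in SA roots, against 271, 253 and 278 in control roots at 4 h (log2 fold change 0.71 ± 0.10 SE, edgeR adjusted p = 4.29e-08) and 133, 152 and 127 CPM in SA roots, against 214, 188 and 208 in control roots at 24 h (-0.57 ± 0.10 SE, edgeR adjusted p = 4.42e-06). In shoots it had 67.3, 61.8 and 53.1 CPM in SA shoots, against 22.6, 24.4 and 21.1 in control shoots at 4 h and 146, 144 and 143 CPM in SA shoots, against 47.9, 37.8 and 35.7 in control shoots at 24 h. The SA roots lay above the controls at 4 h and below them at 24 h, and the SA shoots lay above at both times.

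ABA was given to other seedlings beside the same controls. At 24 h, 49 members were lower and 37 higher with ABA in root (edgeR, adjusted p under 0.05; background 18.3% and 21.1%), and 14 were lower and 33 higher in shoot (8.62% and 9.97%). With replicates entered as a block, 22 were lower in shoot, and without replicate 2 or 3 of every group 5 and 8 were. Of the 135, 20 were higher with ABA in both tissues (6.83% of all genes tested in both) and 4 were lower in root and higher in shoot (0.419%; IPT7, ABCG20, AT1G74460 and BR6OX2, named because they are so few). NCED3 had ABA log2 fold changes of 3.48 in root and 2.64 in shoot at 24 h, and KIN2, a cold and ABA-induced gene also named after its values were seen, had 3.28 and 3.48. Both genes thus rose in both tissues with ABA. In the suberin and lipid barrier group, 8 of 16 were higher and 4 lower in root at 24 h, and 13 were higher and 0 lower in shoot, with a median log2 fold change of 2.59. RWP1 had 109.9, 90.5 and 81.7 CPM in ABA shoots, against 9.55, 7.65 and 8.303 in control shoots (log2 fold change 3.47 ± 0.21 SE, edgeR adjusted p = 9.60e-18), and 333, 269.8 and 263 CPM in ABA roots, against 121, 139 and 129 in control roots (1.15 ± 0.12 SE, edgeR adjusted p = 3.92e-11). AT4G12490 was lower with ABA in root (-6.02) and not called in shoot (-0.55, edgeR adjusted p = 0.357). Since the ABA and SA comparisons share their control libraries, the values stand side by side and no relation between them is given.

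At the earlier times, ABA left 43 members lower and 41 higher in root at 1 h (19.6% and 20.9%), 37 and 48 at 2 h (26.2% and 26.4%), 47 and 48 at 4 h (24.4% and 25.8%) and 51 and 44 at 7 h (26.3% and 24.7%). In shoot it left 25 lower and 32 higher at 1 h (10.9% and 14.5%), 19 and 42 at 2 h (14.0% and 16.4%), 13 and 43 at 4 h (14.7% and 12.9%) and 9 and 37 at 7 h (8.98% and 8.47%). Without replicate 2 of every group, 11, 12, 3 and 1 were lower in shoot at 1, 2, 4 and 7 h. Without replicate 3 of every group 15, 5 and 3 were lower at 1, 4 and 7 h, and without replicate 1 of every group 20 and 14 at 4 and 7 h. With only the groups compared, 5 were lower and 17 higher in shoot at 1 h. At 48 h, where the controls are those that chose the members, the median L with ABA was -0.06 in root and -0.03 in shoot.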

How the data were processed

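The authors deposited 1 table of raw read counts per gene for all 116 libraries, from stranded mRNA libraries read as paired 150-base ends. Reads were aligned to TAIR10 with HISAT2 and counted with featureCounts, per the submitters' processing notes. Counts were fitted per tissue over all groups (SA and ABA against control at each time), and over both tissues for the interaction and for 0 h, with edgeR 4.0.16 in R 4.3.3: filtering by expression, TMM scaling, quasi-likelihood tests and Benjamini-Hochberg adjustment over all genes. On simulated data 94% and 95% of genes changed by 2-fold were recovered at 24 h in root and shoot. The changed genes were drawn above a floor of mean CPM in both tissues, with spread from the fitted trend and no pairing of replicates. The recovery thus does not cover members near 0 in a tissue. Names and sequences came from RefSeq (TAIR10.1), which held all 135 members; some upstream sequences are not reported here. Alternatives were DESeq2 1.42.0 and its size factors, no filter, only the groups compared, each replicate left out, a replicate block and, added after seeing the data, a replicate block for 0 h.

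The members and lists were chosen with earlier results of these data known. Genes named in the text are the 10 with the widest separation at 48 h, the most abundant, the 10 with the smallest larger adjusted p, 5 called the other way, list members and those nearest the thresholds; others are said to be chosen after their values were seen. No 2 replicates were identical. Their lowest correlation was 0.985 in the SA and control groups at 24 and 48 h, 0.669 with the library of 46189 counts and 0.951 elsewhere. Same-numbered SA and control shoot libraries deviated together at 24 h (correlations 0.252 to 0.533), so these numbers were taken to pair them. In root the correlations ran from -0.006 to 0.243. The main tests left this pairing out, and it entered only in the replicate block. Same-numbered root and shoot libraries had correlations of -0.07 to 0.598, and the main interaction and 0 h tests treated them as independent. Among members, 29 overlap another gene.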

Additional observations from a re-analysis of the deposited data

Results flagged for a closer look

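In the 4 shoot controls at 0 h, replicate 1 stood apart from the others for AT5G64120 (704.5 CPM, others 488.0 to 510.8), EDA4 (4.347 CPM, others 1.64 to 2.069) and ABCG6 (5.278 CPM, others 1.754 to 2.286), and replicate 2 for AT5G19240 (132.4 CPM, others 72.18 to 74.25). Such a gap arises by chance in about 1 in 20 groups, but 3 of these 4 values are of 1 library, replicate 1, which also stood apart over all genes (correlations of 0.979 to 0.988 with the other shoot controls at 0 h, against 0.994 to 0.996 among them).

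The SA effect at 24 h differed between the tissues, higher in shoot than in root, for 100 of the 135 members by edgeR's interaction test. The 10 members listed next were picked by their calls in these libraries, so their large differences follow largely from that choice. Among the 10 members with the clearest opposite calls, the shoot minus root difference on the log2 scale was 5.011 for AT5G59070, 4.182 for Hsp70-2, 3.428 for FUT4, 3.111 for AT1G55265, 2.812 for PDIL1-3, 2.74 for AT5G64120, 2.411 for AGO7, 2.147 for AT3G57630 and 2.091 for MSRB9. For LUP5, which had no count in SA roots, the size of the difference rests on zero counts and is not given; its adjusted p in edgeR was 9.122e-21.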

How the results depend on the processing

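The counts over all members for SA at 24 h, the interaction and 0 h stayed within 1.5 times of the values given under every alternative run, except the single member lower in shoot (0 to 3 with a replicate left out). Counts of role groups moved more, as given beside them. Over all alternatives run, members lower in root at 24 h numbered 85 to 106, those higher in shoot 71 to 92, and those called in both directions 57 to 75. Of 1485 values of single genes under alternatives, 1440 kept their call or lack of one, 31 lost a call, 14 gained one (TT7 in shoot with 4 alternatives, the block among them) and 0 reversed.

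The number of members depended most on the rule's settings: it was 223 with a pseudocount of 0.1 CPM, 57 with 2 CPM, 67 with TMM-scaled totals, 70 with DESeq2 size factors, 254 with a threshold of 0.8, 30 with 1.5, and 129 to 146 with a replicate left out.

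Early shoot counts of members called were small and moved. With the replicate block, SA at 1 h gave 3 lower and 2 higher, SA at 2 h gave 5 lower and ABA at 24 h gave 22 lower; the block changed no other count over all members by over 1.5 times. With only the groups compared, SA at 1 h gave 0 higher, SA at 2 h 5 lower, SA at 7 h 1 lower, and ABA at 1 h 5 lower and 17 higher. With a replicate left out, members lower with SA numbered 0 to 2 at 1 h, 0 to 5 at 2 h, 0 to 3 at 4 h, 0 to 2 at 7 h and 0 to 3 at 24 h. Members higher with SA numbered 0 to 1 at 1 h, 2 to 18 at 2 h, 23 to 37 at 4 h and 30 to 57 at 7 h. Members lower with ABA numbered 11 to 23 at 1 h, 12 to 20 at 2 h, 3 to 20 at 4 h, 1 to 14 at 7 h and 5 to 17 at 24 h. The cause was not tested. The shoot controls at 7 h include the library of 46189 counts, which limits the precision there.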

Other observations

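Among the members in no role group, AT5G19240, a GPI-anchored membrane protein gene, was among the most abundant in shoot. At 24 h it had 61.5, 46.2 and 52.5 CPM in SA roots, against 85.9, 80.1 and 91.9 in control roots, and 486, 411 and 386 CPM in SA shoots, against 123, 159.7 and 141 in control shoots (shoot log2 fold change 1.598 ± 0.23 SE, edgeR adjusted p = 8.03e-08). The groups lay apart in both tissues, and the root call (-0.69) was lost without replicate 2 of every group (-0.62).

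KAT5, a ketoacyl-CoA thiolase gene of fatty acid oxidation, had 106, 92.6 and 87.3 CPM in SA roots, against 125, 128 and 114 in control roots, a fall that was not called without replicate 2 of every group (-0.29). In shoots KAT5 had 282, 238 and 204 CPM in SA shoots, against 303, 202 and 142 in control shoots, which overlap. AT1G26390, a berberine-family gene, was the member called lower in both tissues at 24 h, with 11.2, 7.16 and 13.1 CPM in SA roots, against 319, 251 and 363 in control roots, and 10.4, 5.53 and 7.31 CPM in SA shoots, against 15.1, 11.2 and 23.6 in control shoots; it was named after its values were seen. AT1G26390 had L of -3.13 in root and 1.501 in shoot at 48 h, so its shoot value had the other sign at 24 h.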
